A study of Homo sapiens with 4 samples.

Results

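The expressed genes described here are those of 1 RNA sequencing library, the one labelled as HepG2 cells that carry a lentiviral Control short hairpin RNA and were then given sorafenib. A gene was counted as part of the expressed program when it reached 100 CPM (the gene's count divided by the library total of 70236882 and multiplied by 1000000). This held for 2522 genes, which are 16.3% of the 15433 above the floor of detection and 8.92% of the 28278 in the whole table. Genes above the floor made up 54.6% of the table, and 18291 genes were above 0. HepG2 is a human line derived from a liver cancer, and sorafenib is an oral inhibitor of several protein kinases used against hepatocellular carcinoma. The labels give a dose of 10 µM for 48 hours, in DMEM medium that held 10% fetal bovine serum. The other 3 libraries carried a hairpin against ATF7IP (2 libraries, 1 per hairpin) or against SETDB1 (1 library), and received the same drug in the same cells. No library without sorafenib was analysed here, so what the drug does and what the cells express without it cannot be told apart. Control has 1 library and therefore no replicate error. The intervals given below are exact 95% Poisson intervals on an assumed 4 counts per fragment. They cover counting error alone, and are too narrow for it where PCR duplicates of a molecule are counted as if independent.

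A hepatocyte is known by what it secretes and detoxifies. It exports albumin, apolipoproteins, clotting factors and carriers of iron and copper into the blood, under a network of transcription factors that includes the HNF4, FOXA and C/EBP families, and it runs the urea cycle. Epithelial cells that line ducts carry keratins such as KRT7 and KRT19 with E-cadherin at their junctions, while mesenchymal cells carry vimentin, N-cadherin and fibrillar collagens. HepG2 is known for keeping much of the secretory program of the liver, albumin and alpha-fetoprotein included.

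The label was checked against those genes first, and the data went against it. ALB, AFP, APOA1, APOB, TTR, SERPINA1, FGA, HP and AHSG, which encode the main proteins of plasma and of fetal serum, were all at 0 counts in Control. A count of 0 lies under the floor of 3 fragments, which is 0.171 CPM, and its exact interval reaches up to 0.210 CPM. ALB, AFP, APOB and TTR were also at 0 in each of the other 3 libraries. APOA1 reached at most 0.0407 CPM (ATF7IP hairpin 2) and SERPINA1 at most 0.165 CPM (SETDB1 hairpin), both at or below the floor. With the liver-defining genes not detected, the sample is called the library labelled Control, or Control, in what follows.

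The library was spread over many genes. The 2522 genes held 67.8% of all counts, with a median of 171 CPM and a highest value of 8577 CPM, against a median of 23.2 CPM for all genes above the floor. Among them, 74 reached 1000 CPM, 236 reached 500 CPM and 1522 lay between 100 and 200 CPM. The 10 highest genes held 3.70% of counts and the 100 highest held 15.1%, and 1172 genes were needed to reach 50%. The threshold cut through a dense part of the range: RALGPS2 (7028 counts), VKORC1L1 (7026 counts) and JUNB (7025 counts) lay just inside, and HPS3 (99.9 CPM), UBA3 (99.8 CPM) and CHURC1 (99.8 CPM) just outside. The interval around a member reached at most 4.71% of its value to either side. By gene type, 2493 of the 2522 were protein-coding, 14 were long noncoding RNAs, 8 were ribosomal RNA genes and 6 were transcribed pseudogenes, and 1 had no match in the annotation.

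**Figure D1:**
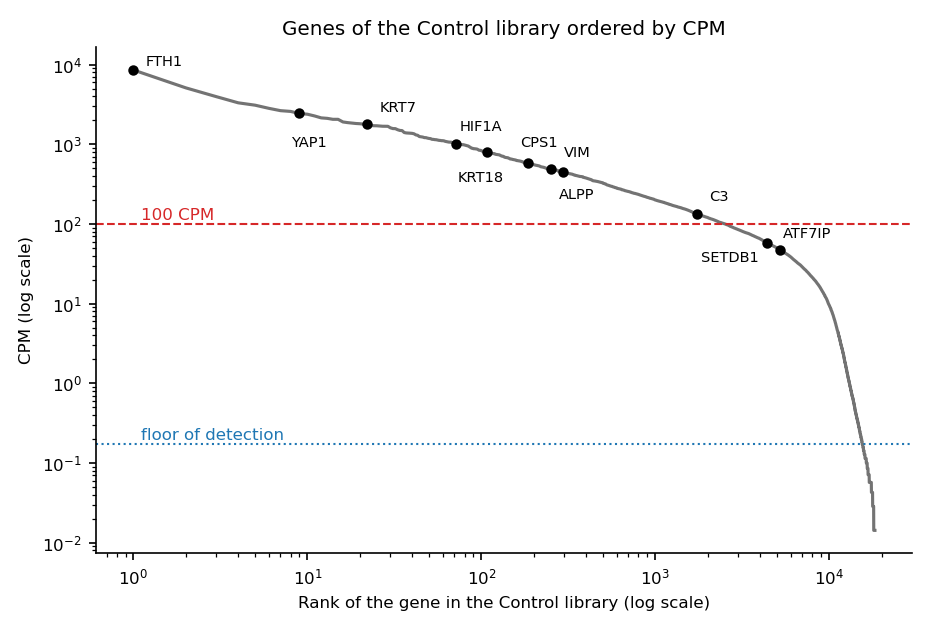
Genes of the library labelled Control in order of CPM, with rank on the horizontal log axis and CPM on the vertical log axis; the dashed line marks 100 CPM and the dotted line the floor of detection at 0.171 CPM. The 5 genes taken as markers (KRT7, KRT18, CPS1, VIM, ALPP) lie between ranks 22 and 296, on the upper part of the curve. They were chosen with earlier results of these data known, so their ranks do not identify the cells.

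The proximal promoter letters of 7 genes of the program are shown here because these genes carry a TATA element, a feature of few expressed genes whose share differed with the level of expression in Control. Of the named genes at or above 100 CPM, MYC, KLF10, CLU, ADAM9 and SLC39A14 were left out of this count. Among the others, 81 had a promoter in the RefSeq table (assembly GRCh38.p14). Of those 81, 7 held the letters TATAAA on the sense strand, starting 40 to 20 bases before the annotated start. The list of 7 may therefore be incomplete for the named genes. TFRC encodes the transferrin receptor, RPLP0 a stalk protein of the large ribosomal subunit, EEF2 the translocation factor of translation, HSPA1A the inducible HSP70 chaperone, ANXA2 a membrane-binding annexin, and ATF4 and JUNB transcription factors induced by stress and by growth signals. Each line gives the 60 bases before the start, 5′ to 3′ on the gene's own strand, with TATAAA in capitals.
TFRC (chr3:196082091-196082150, minus strand): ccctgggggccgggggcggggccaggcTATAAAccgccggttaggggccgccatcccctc
RPLP0 (chr12:120201112-120201171, minus strand): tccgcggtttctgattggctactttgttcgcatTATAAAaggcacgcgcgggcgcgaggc
EEF2 (chr19:3985464-3985523, minus strand): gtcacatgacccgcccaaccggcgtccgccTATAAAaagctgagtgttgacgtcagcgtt
HSPA1A (chr6:31815483-31815542, plus strand): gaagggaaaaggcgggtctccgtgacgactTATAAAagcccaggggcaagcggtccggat
ANXA2 (chr15:60397987-60398046, minus strand): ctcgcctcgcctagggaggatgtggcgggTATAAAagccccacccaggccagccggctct
ATF4 (chr22:39520499-39520558, plus strand): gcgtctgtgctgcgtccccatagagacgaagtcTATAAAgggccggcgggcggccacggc
JUNB (chr19:12791426-12791485, plus strand): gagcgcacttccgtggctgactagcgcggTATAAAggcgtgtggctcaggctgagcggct

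Across the program, TATAAA in that window was found in 47 of the 2093 protein-coding members with a promoter (2.25%). The share was 1.83% of 8864 genes above the floor but below 100 CPM, 8.03% of 4394 genes at or below the floor, and 3.66% of all 15351 protein-coding genes of the table with a promoter. Within the program it was higher at higher levels, with 26 of 806 genes (3.23%) at or above 200 CPM, 12 of 188 (6.38%) at or above 500 CPM and 8 of 60 (13.3%) at or above 1000 CPM. CCAAT or its reverse complement ATTGG, anywhere in the 250 bases before the start, was in 36.4% of members against 34.8% of all these genes, and in 51.7% of those at or above 1000 CPM. The GC box GGGCGG or its reverse complement CCGCCC, in the same 250 bases, was in 71.8% of members, 65.4% of genes above the floor but below 100 CPM, and 32.3% of genes at or below the floor. The median GC content of the promoters was 65.6%, 64.8% and 54.0% in the same order. These are counts of letters and not of bound sites, and no test was run on them.

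The most abundant transcript was FTH1, the heavy chain of the iron store ferritin, at 8577 CPM [8533 to 8620]. EEF1A1, which delivers aminoacyl-tRNA to the ribosome, followed at 5119 CPM, then the cytoskeletal genes ACTB (3966 CPM) and FLNA (3323 CPM) and the glycolytic enzymes ENO1 (3103 CPM) and GAPDH (2833 CPM). NPM1, a nucleolar chaperone, was at 2649 CPM and HSP90AB1, a constitutive HSP90, at 2591 CPM. YAP1, the transcriptional coactivator held in check by the Hippo pathway, was 9th in CPM at 2441 CPM [2418 to 2464]. Further genes among the 20 highest were HSPA8 (2272 CPM), SLC38A2 (2149 CPM), TUBB (2120 CPM), FTL (2063 CPM), HSP90AA1 (2062 CPM), ACTG1 (1911 CPM), TFRC (1875 CPM), RPLP0 (1851 CPM), TUBA1B (1827 CPM) and CANX (1815 CPM). Nearly all of the genes named here serve translation, protein folding, the cytoskeleton, glycolysis or iron handling, and YAP1 was the regulator of transcription among them. CPM favours long transcripts, so levels between genes were also set per kilobase, as TPM, which divides each count by transcript length before scaling to the same total. On the TPM scale FTH1 stayed first at 21987 TPM and FTL, the ferritin light chain, was 2nd at 4601 TPM, while FLNA moved to rank 161 (786 TPM) and YAP1 to rank 88 (1246 TPM). Of the 2522 genes, 1586 also reached 100 TPM.

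The 5 genes taken as markers of these cells were all well above the threshold. They were chosen with earlier results of these data known, so their levels are no independent evidence of cell type. KRT7 (chr12:52233243-52255853), a keratin of ductal and other simple epithelia, was at 1790 CPM [1771 to 1810] in Control, rank 22, and at 1854, 1048 and 1026 CPM in ATF7IP hairpin 1, ATF7IP hairpin 2 and the SETDB1 hairpin. KRT18 (chr12:52948855-52952906), a keratin of simple epithelia including hepatocytes, was at 792 CPM [779 to 805], rank 108, and at 646, 546 and 750 CPM in the same order. VIM (chr10:17228241-17237593), the intermediate filament of mesenchymal cells, was at 489 CPM [479 to 499], rank 251, and at 533, 395 and 472 CPM. The lowest value of these 3 filament genes in any library was 395 CPM, and Control was the highest of the 4 only for KRT18. CPS1 (chr2:210477685-210679107), the mitochondrial enzyme that starts the urea cycle, was at 577 CPM [566 to 588], rank 186, and at 498, 458 and 214 CPM. ALPP (chr2:232378751-232382889), placental alkaline phosphatase, was at 447 CPM [438 to 457], rank 296, and at 73.2, 21.8 and 192.7 CPM, so its level in Control lay above that of each other library. ALPP has a close copy, ALPG, at 16.2 CPM in Control, so the split of reads between them is uncertain, and their sum was 464 CPM in Control and 74.4, 21.8 and 201 CPM in the others. Per kilobase the order of the 5 in Control was KRT7 (3259 TPM), KRT18 (993 TPM), VIM (513 TPM), ALPP (295 TPM) and CPS1 (216 TPM). In bulk RNA, fewer cells that express a gene and less of its RNA per cell cannot be told apart, and with 1 Control library none of these differences between libraries was tested.

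**Figure D2:**
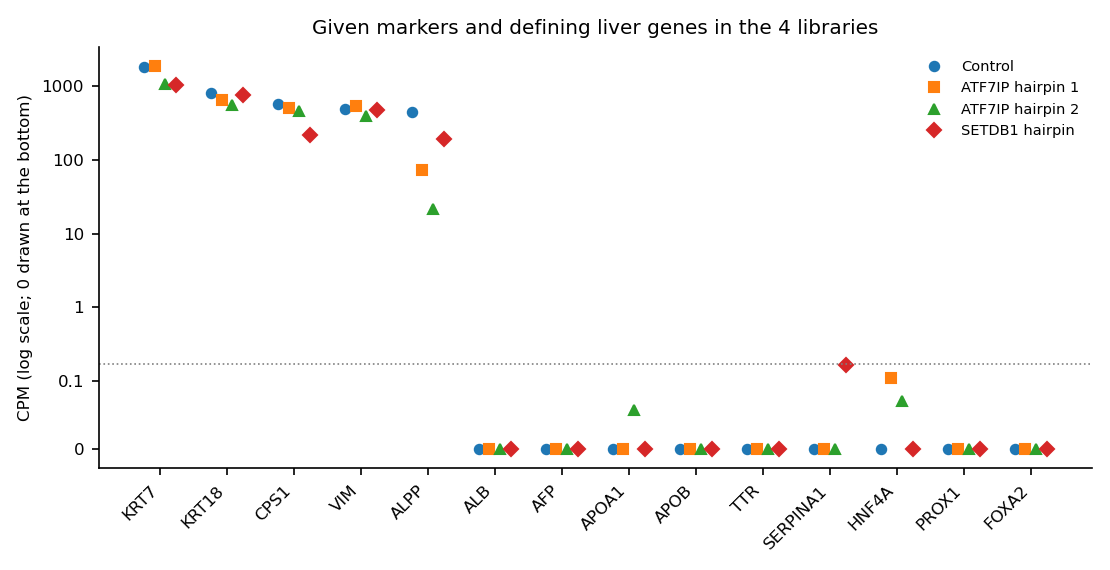
CPM (log axis, genes at 0 drawn at the bottom) of the 5 markers and of 9 defining liver genes in the 4 libraries, 1 point per library; the dotted line is the highest floor among them, 0.171 CPM. The 5 markers lie between 21.8 and 1854 CPM in all 4 libraries, and the 9 liver genes are at or below the floor in all 4.

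The other liver genes followed the check of the label. Of 28 secreted hepatocyte proteins, 7 were above the floor, 4 were above 0 but at or below the floor, and 17 were at 0. The 7 were C3, VTN, TF, AMBP, ITIH4, HPX and FGG. C3, the central complement component that many cell types make, was at 134 CPM [128 to 139], rank 1736, and was the single member in the program. That is 14.3% of the 7, beside 16.3% of all genes above the floor. VTN, vitronectin, was at 1.05 CPM, and the other 5 were between 0.271 (FGG) and 0.313 CPM (TF), with 5 or 6 fragments each. FGB, APOA2, SERPINC1 and CP were above 0 but at or below the floor. Members at 0, besides those named above, were APOC3, APOH, RBP4, ITIH1, ITIH2, ITIH3, F2 and F9. The summed level of all 28 was 137 CPM in Control, of which C3 made up nearly all, and 160.5, 243 and 57.2 CPM in ATF7IP hairpin 1, ATF7IP hairpin 2 and the SETDB1 hairpin.

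Liver enzymes and surface proteins gave a similar picture with a pair of exceptions. Of 30 such genes, 8 were above the floor, beside 54.6% of all genes in the table, and 16 were at 0. ASS1, which joins citrulline and aspartate in the urea cycle, was at 609 CPM [597 to 620], rank 170, and CPS1 at 577 CPM. The next were HPD, an enzyme of tyrosine breakdown, at 6.34 CPM and ASGR1, a subunit of the asialoglycoprotein receptor, at 1.79 CPM. Both genes of the program in that list are enzymes of the urea cycle that other tissues also express. They are 25% of the list's genes above the floor, beside 16.3% of all genes above the floor.

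Among 19 liver transcription factors, HNF4A, FOXA2, PROX1, NR1H4 and NR1I2 were at 0 in Control. GATA4 (0.0570 CPM) and NR0B2 (0.0427 CPM) were above 0 but below the floor. ONECUT2, a cut-homeodomain factor of developing liver and other tissues, was the single member of the list in the program, at 166 CPM [160.0 to 172], although its long transcript brings it to 20.2 TPM. GATA6 was at 32.2 CPM, PPARA at 27.7 CPM, FOXA1 at 15.2 CPM and CEBPA at 10.4 CPM. HNF4G (2.41 CPM), NR5A2 (2.02 CPM), NR1I3 (1.37 CPM), FOXA3 (0.413 CPM) and ONECUT1 (0.228 CPM) were lower. Of these factors at 0 in Control, HNF4A reached 0.112 CPM in ATF7IP hairpin 1, below the floor, and FOXA2, PROX1, NR1H4 and NR1I2 were at 0 in all 4 libraries.

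The epithelial and mesenchymal lists gave a mixed profile. KRT8, the partner keratin of KRT18, was at 491 CPM, so KRT7, KRT8 and KRT18 were all in the program. KRT19, another keratin of ducts, was at 0.0570 CPM, and the adhesion proteins CDH1 (E-cadherin) and EPCAM were at 0, as were SPP1 and CFTR. SOX9, a duct and progenitor factor, was at 10.1 CPM, MUC1 at 4.23 CPM and CLDN4 at 1.21 CPM. Of 13 basal and squamous genes, 5 were above the floor, beside 54.6% of all genes in the table. They were led by KRT17 at 364 CPM (rank 422) and by SFN, the 14-3-3 sigma protein, at 93.9 CPM. KRT16 was at 2.92 CPM and KRT15 at 0.441 CPM. KRT16 and KRT17 have close copies among keratin pseudogenes, so their counts depend on how shared fragments were assigned.

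Of 20 mesenchymal genes, 18 were above the floor, beside 54.6% of all genes in the table, and 7 were in the program. The median of the 20 was 35.4 CPM, 14 reached 10 CPM and 2 were at 0. The 7 are 38.9% of those above the floor, beside 16.3% of all genes above the floor. The list was chosen with earlier results of these data known, so the share is no independent evidence. After VIM came CALD1, an actin-binding protein of contractile cells, at 310 CPM, FN1 (fibronectin) at 294 CPM and TPM2 (beta-tropomyosin) at 276 CPM. TPM1 was at 199 CPM, CDH2 (N-cadherin) at 192 CPM and S100A4 at 155 CPM. Thus the cadherin of mesenchymal and neural cells was in the program and that of epithelia was at 0. The transcription factors of the mesenchymal list (ZEB1, ZEB2, SNAI1, SNAI2, TWIST1, TWIST2 and PRRX1) were all below 100 CPM. In the list for stellate cells and fibroblasts, 1 of the 8 genes above the floor was in the program. That is 12.5%, beside 16.3% of all genes above the floor. This gene was COL3A1, a fibrillar collagen, at 332 CPM. LUM was at 80.7 CPM, FAP at 31.6 CPM and COL1A1 at 30.9 CPM, while the fibroblast receptor PDGFRA was at 0.

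Markers of other cell types that such a sample could hold were low. In the table as a whole, 54.6% of genes were above the floor. Of 13 endothelial genes, 4 were above the floor, with ESAM highest at 6.85 CPM, ERG at 0.840 CPM, VWF at 0.413 CPM and STAB2 at 0.242 CPM, and the list summed to 8.77 CPM in Control and to 11.8, 11.8 and 10.9 CPM in the other libraries. Of 13 leukocyte genes, 4 were above the floor, with the lysosomal protein CD68 at 21.7 CPM, CSF1R at 1.34 CPM, CD14 at 0.626 CPM and the pan-leukocyte PTPRC at 0.228 CPM, for a sum of 24.0 CPM in Control and 25.9 to 43.1 CPM elsewhere. HBA1 and HBA2, near-identical globin copies, were at 0.755 CPM each. All 7 pancreatic genes were at 0, and none of 8 intestinal genes was above the floor, with LGALS4 highest at 0.157 CPM.

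The trophoblast and placental list had 11 of 22 genes above the floor, beside 54.6% of all genes in the table. Of those 11, 9.09% were in the program, beside 16.3% of all genes above the floor. ALPP was the single member in the program, and TFAP2A (71.8 CPM) and GATA2 (53.1 CPM), transcription factors of trophoblast and other tissues, and PSG4 (32.6 CPM), a pregnancy-specific glycoprotein with close copies, came next. Single genes stood out in other lists. MITF, the factor of melanocytes that other cells also use, was at 110 CPM with PMEL, a melanosome protein, at 0.925 CPM. MAGEA6 (59.6 CPM) and MAGEA3 (13.5 CPM), near-identical cancer-testis genes, and PRAME (34.0 CPM) led the germline list, in which POU5F1 was at 4.21 CPM. MSLN, the surface glycoprotein mesothelin, was at 57.9 CPM with WT1 at 0.114 CPM, and PPARG was at 48.7 CPM with GATA3 at 0.726 CPM. In the neural list MAP2 was at 18.1 CPM, TUBB3 at 11.7 CPM and NES at 7.26 CPM, in the muscle list TNNT1 at 14.8 CPM, and in the lung list NKX2-1 at 4.87 CPM, its sole member above 0. The kidney list reached 0.925 CPM (LHX1) and the adipocyte list 0.199 CPM (PLIN1).

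**Figure D3:**
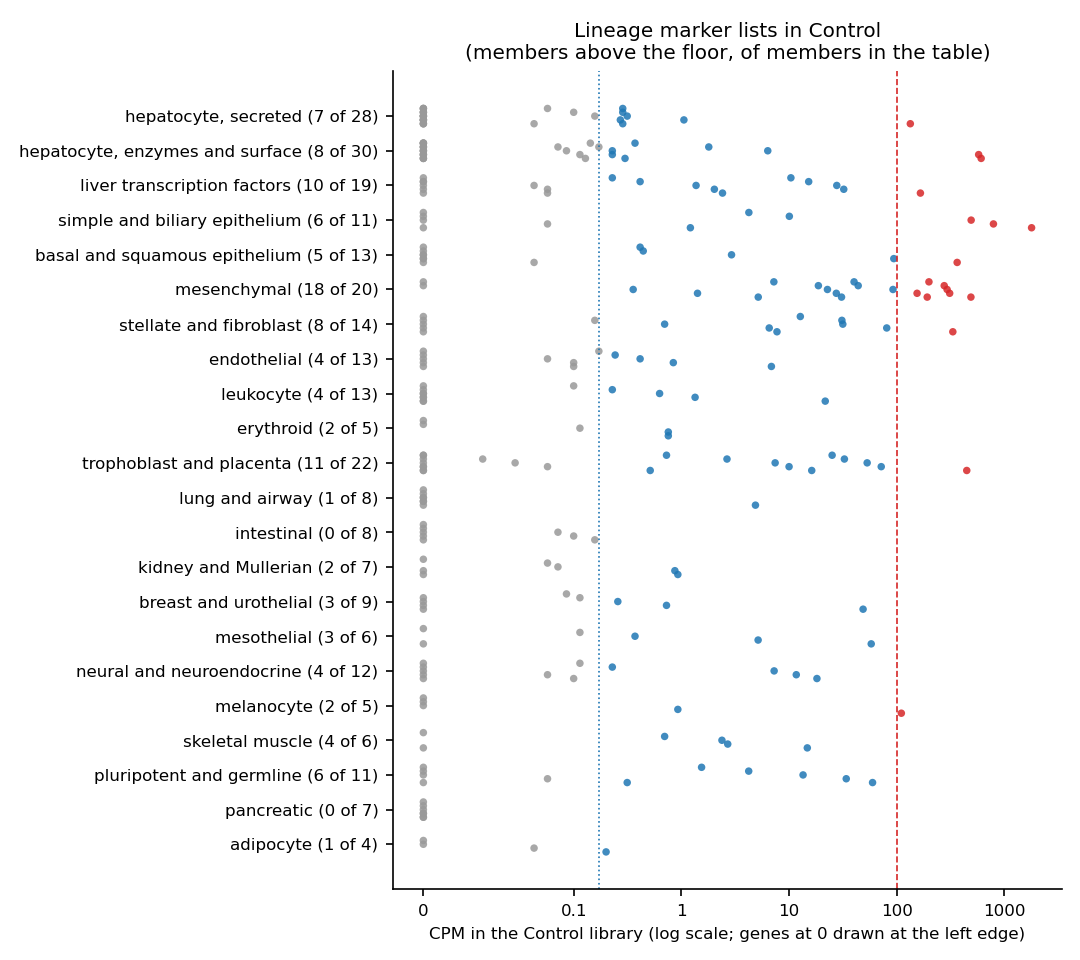
CPM of every member of the 22 lineage lists in the library labelled Control (log axis, genes at 0 drawn at the left edge), 1 point per gene, with members above the floor out of members in the table beside each name; grey points are at or below the floor of 0.171 CPM (dotted) and red points are at or above 100 CPM (dashed). Of 28 secreted hepatocyte genes 1 is red, and of 20 mesenchymal genes 7 are. Of all genes above the floor, 16.3% are at or above 100 CPM.

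Listed transcription factors were in the program at a share close to that of all genes. Of 483 listed factors, 406 were above the floor and 62 reached 100 CPM, which is 15.3% of those above the floor. The share was 16.3% of all genes above the floor and 18.6% of the protein-coding ones. The factors held 2.32% of the library's counts over the whole list. HIF1A, the oxygen-regulated subunit of hypoxia-inducible factor, was the highest in CPM at 1020 CPM [1005 to 1035], rank 71, and its relative EPAS1 (HIF-2 alpha) was at 489 CPM, rank 253. HMGA1, an architectural chromatin protein, was at 719 CPM, MYC, the growth-promoting factor, at 679 CPM, and ATF4, the effector of the integrated stress response, at 606 CPM. TEAD1, the DNA-binding partner of YAP1, was at 580 CPM, rank 182, and XBP1, the factor of the unfolded protein response, at 329 CPM.

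The next factors were FOSL2 (296 CPM), a FOS family member of AP-1, YY1 (283 CPM) and FOXM1 (274 CPM), which drives genes of mitosis. KLF10 (262 CPM), MAZ (256 CPM), NFE2L1 (254 CPM), which sustains proteasome genes, and ID3 (231 CPM), an inhibitor of helix-loop-helix factors, were also among the 15 highest. Per kilobase the order changed: HMGA1 (746 TPM), MYC (651 TPM), ATF4 (622 TPM) and HIF1A (510 TPM) were the 4 highest of the list. On the longest principal transcripts MYC (rank 87 of all genes) stood above HMGA1 (rank 146), ATF4 (rank 168) and HIF1A (rank 200), so the order depends on the transcript length used. On the median length FOSL2 (92.6 TPM) and YY1 (82.7 TPM) were below 100 TPM, and 34 factors reached that level. Zinc finger genes with a ZNF symbol were lower, with 13 of the 345 above the floor in the program (3.77%, beside 16.3% of all genes). They were led by ZNF664 (303 CPM), ZNF146 (245 CPM) and ZNF195 (206 CPM). The values across the other libraries, which were not tested, lay on both sides of Control for HIF1A, MYC and ATF4. HIF1A was at 966, 1079 and 1109 CPM, MYC at 626, 554 and 755 CPM, and ATF4 at 628, 519 and 606 CPM in ATF7IP hairpins 1 and 2 and the SETDB1 hairpin. TEAD1 lay above all 3 others, which were at 289, 281 and 350 CPM, and ID3 in the SETDB1 hairpin was lower than in any other library, at 63.0 CPM.

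Of the 341 listed secreted genes in the table, 251 were above the floor and 68 reached 100 CPM, which is 27.1% of those above the floor. The share was 16.3% of all genes and 18.6% of protein-coding genes above the floor. The list, chosen with earlier results of these data known, held 2.36% of counts. The highest were PSAP, the precursor of lysosomal saposins, at 882 CPM [868 to 896], and B2M, the light chain of class I histocompatibility molecules, at 797 CPM. Matrix genes followed, with COL12A1 at 764 CPM, COL4A2 and LAMC1, chains of basement membrane collagen and laminin, at 636 and 621 CPM, and COL5A1 at 534 CPM. CALU, a calcium-binding protein of the secretory pathway, was at 706 CPM, and CCN1, a matricellular protein, at 645 CPM. STC2 (540 CPM), a secreted stress-responsive glycoprotein, FSTL1 (496 CPM), TIMP2 (458 CPM), an inhibitor of matrix metalloproteinases, and CLU (434 CPM), an extracellular chaperone, came next. EFEMP1 (422 CPM), the growth factor carrier IGFBP3 (400.2 CPM) and the sheddase ADAM9 (399 CPM) ended the 15 highest. The collagens and laminin stood lower per kilobase: COL12A1 was at 155 TPM (rank 119 in CPM, 1257 in TPM), LAMC1 at 154 TPM (ranks 164 and 1268) and COL5A1 at 124 TPM (ranks 216 and 1632), against 1543 TPM for B2M and 610.3 TPM for PSAP. FSTL1 and COL12A1 in Control lay above the other 3 libraries, with 195, 119 and 265 CPM for FSTL1 and 437, 434 and 493 CPM for COL12A1.

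Surface genes were led by nutrient transporters. Of 367 listed genes, 303 were above the floor and 94 reached 100 CPM, which is 31.0% of those above the floor. The share was 16.3% of all genes and 18.6% of protein-coding genes above the floor. The list, chosen with earlier results of these data known, held 3.61% of counts. SLC38A2 and SLC38A1, sodium-coupled carriers of neutral amino acids, were at 2149 CPM [2128 to 2171] and 1299.7 CPM, ranks 12 and 43. SLC7A5, the light chain of the large neutral amino acid exchanger, was at 1612 CPM and SLC3A2, its heavy chain, at 841 CPM. TFRC, which brings iron into cells, was at 1875 CPM and SLC39A14, a carrier of zinc and iron, at 473 CPM. CD55, a brake on complement, was at 1112 CPM, the tetraspanin-like TM4SF1 at 1076 CPM and BSG, a chaperone of lactate carriers, at 767 CPM. Others of the 15 highest were ITGB1 (621 CPM), the beta chain of many integrins, EGFR (557 CPM), the receptor of epidermal growth factor, ALPP (447 CPM) and the adhesion protein L1CAM (428 CPM). Per kilobase SLC38A2 (1502 TPM) remained above CD55 (1182 TPM), while TFRC came to 730 TPM and L1CAM to 174 TPM.

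Receptor kinases and the drug's known targets were looked up after the values were seen, as a description of this drug-treated library. BRAF, a kinase that sorafenib inhibits, was at 41.0 CPM. Of the receptor targets of sorafenib, KDR, FLT4, KIT, FLT3, RET and PDGFRA were at 0, FLT1 was at 0.0570 CPM, below the floor, and PDGFRB was at 6.54 CPM. Receptor kinases in the program besides EGFR included MET (311 CPM), AXL (279 CPM) and EPHA2 (278 CPM), and FGFR1 was below it at 61.7 CPM.

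**Figure D4:**
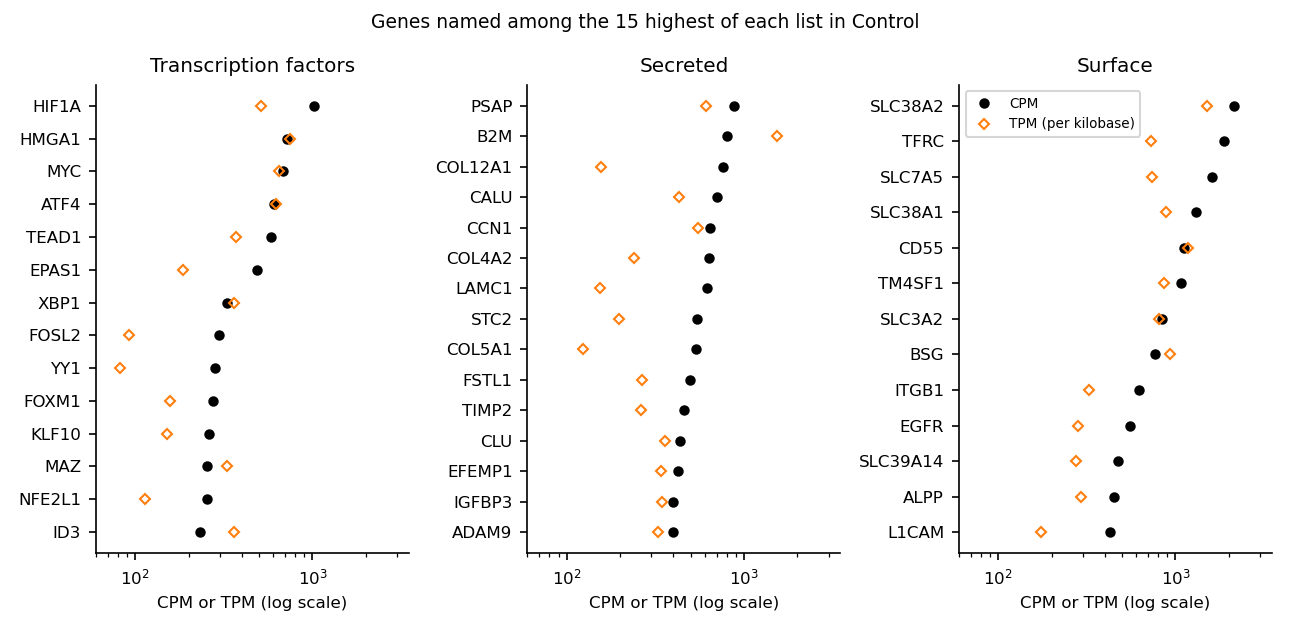
Genes named among the 15 highest transcription factors, secreted genes and surface genes in the library labelled Control, as CPM (black points, with lines for the exact 95% Poisson interval, mostly narrower than the point) and as TPM (open diamonds), on log axes. HIF1A, PSAP and SLC38A2 lead their lists in CPM at 1020, 882 and 2149, and long transcripts such as COL12A1 move down on the TPM scale.

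The 14 classes of basic cell machinery covered 394 of the 2522 genes (15.6%), and 1908 genes of the program were in no list of any kind. Class counts are given out of all listed members. The lists were chosen with earlier results of these data known, so their shares are a description and no independent evidence. Of members above the floor, the share in the program ran from 31.2% (respiratory chain) to 97.4% (translation factors). The share was 16.3% of all genes and 18.6% of protein-coding genes above the floor. Of 95 ribosomal protein genes, 74 were at or above 100 CPM and held 4.62% of counts as a class, led by RPLP0 (1851 CPM), RPS2 (1712 CPM) and RPL3 (1697 CPM). Translation factors had 38 of 39 genes in the program (2.34% of counts), with EEF1A1, EEF2 (1730.2 CPM) and EIF4G2 (1215 CPM) highest. The actin and tubulin class had 37 of 45 (2.68%), and genes of chromatin, splicing and the nucleolus 44 of 46 (2.37%), led by NPM1, SET (1578 CPM) and NCL (1489 CPM). In the glycolysis class 13 of 20 genes were in the program (1.34%), with LDHA, which makes lactate from pyruvate, at 1714 CPM after ENO1 and GAPDH. The nuclear genes of the respiratory chain gave different counts on the 2 scales: 24 of 83 reached 100 CPM (0.770% of counts) and 60 of 83 reached 100 TPM, with ATP5F1B, a catalytic subunit of ATP synthase, at 953 CPM and ATP5F1A and COX4I1 at 382 and 277 CPM. No mitochondrially encoded gene was analysed here.

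Most listed protein folding genes were in the program, beside 16.3% of all genes above the floor. These lists too were chosen with earlier results of these data known. Of 28 cytosolic and mitochondrial chaperones, 25 were in the program (2.24% of counts), and of 25 chaperones of the endoplasmic reticulum 19 were (1.11%). HSPA5 (BiP), the sensor-binding chaperone of the endoplasmic reticulum, was at 1685 CPM and HSP90B1 at 1380.4 CPM. Of 36 stress-response genes, 19 were in the program (1.26%), with HSPA1A at 1314 CPM and the autophagy receptor SQSTM1 at 1244 CPM. HSPA1A and HSPA1B are near-identical copies, so the split between them is uncertain, and their sum was 2434 CPM. HSPA1A was at 914, 1469 and 3035 CPM in ATF7IP hairpins 1 and 2 and the SETDB1 hairpin, so Control lay inside the range of the others. Of 48 proteasome genes 31 were in the program (0.637%), led by PSMA7 (334 CPM), PSMA6 (292 CPM) and PSMD2 (273 CPM). Redox and iron genes had 25 of 39 (2.14%), most of it from FTH1, FTL and TFRC.

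The cell cycle class had 30 of 40 genes in the program (0.899% of counts). That is 76.9% of its members above the floor, beside 16.3% of all genes above the floor, in a list chosen with earlier results known. RRM1, the large subunit of ribonucleotide reductase, was at 1688 CPM, rank 27, and at 1753, 2086 and 1790 CPM in the other libraries. TOP2A, a topoisomerase of dividing cells, was at 507 CPM and CCND1, cyclin D1, at 460 CPM. Among intermediate filaments 9 of 24 genes were in the program (0.509%), with KRT7, KRT18 and KRT80 (498 CPM) highest. Annexins and S100 proteins had 11 of 26 (0.333%), with ANXA2 at 1081 CPM, ANXA5 at 426 CPM and ANXA3 at 277 CPM. Several class counts depend on the threshold: at 200 CPM they were 10 for the proteasome, 4 for annexins and S100 proteins, 13 for the cell cycle, 16 for redox and iron and 4 for the respiratory chain, and at 50 CPM the respiratory chain had 56.

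**Figure D5:**
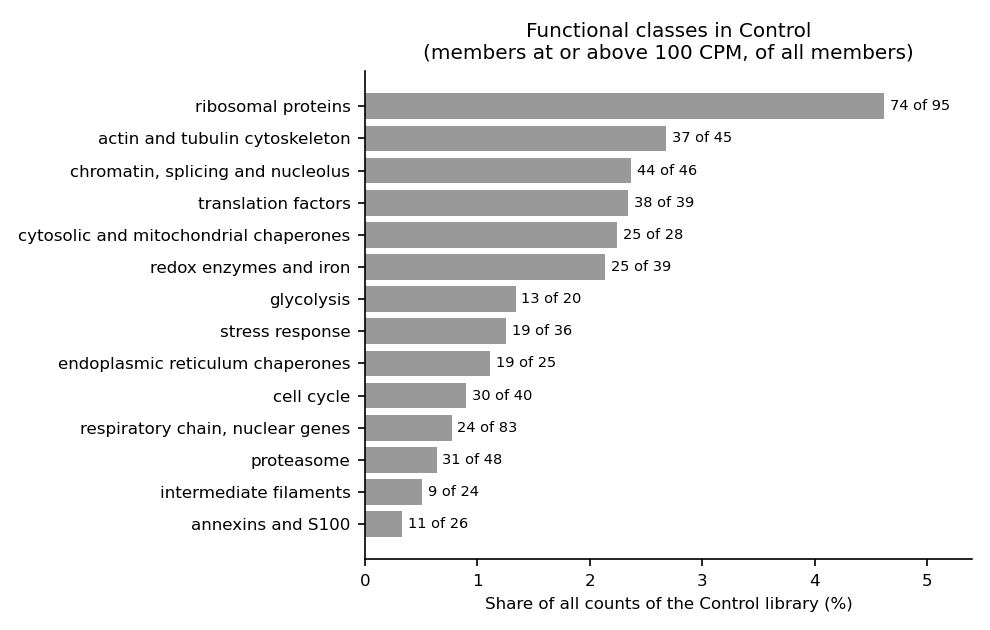
Share of all counts of the library labelled Control (horizontal axis in percent, starting at 0) held by 14 functional classes, with the number of members at or above 100 CPM out of all members beside each bar. Ribosomal proteins hold the largest share of the 14 at 4.62%, and annexins and S100 proteins the smallest at 0.333%. Of all genes above the floor, 16.3% are at or above 100 CPM.

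The genes that the other hairpins were aimed at lay outside the program in Control. ATF7IP, a cofactor of SETDB1, was at 58.5 CPM (rank 4363), with 18.1, 19.6 and 95.8 CPM in ATF7IP hairpins 1 and 2 and the SETDB1 hairpin. SETDB1, a histone H3 lysine 9 methyltransferase, was at 47.3 CPM (rank 5213), with 51.6, 48.6 and 11.7 CPM in the same order, so each targeted gene was lowest in the library or libraries of its own hairpin.

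Most of the program was shared by all 4 libraries. Of the 2522 genes, 2188 (86.8%) also reached 100 CPM in ATF7IP hairpin 1, 2296 (91.0%) in ATF7IP hairpin 2 and 2287 (90.7%) in the SETDB1 hairpin. Taken the other way, the shared genes were 90.3% of the 2423 genes at that level in ATF7IP hairpin 1, 88.9% of 2583 in ATF7IP hairpin 2 and 92.5% of 2473 in the SETDB1 hairpin. All 3 other libraries held 2042 (81.0%) at that level, and every one of the 2522 was above the floor in each. Of the 1000 genes at or above 200 CPM in Control, 990 reached 100 CPM in all 3 others. The 78 genes (3.09%) that reached 100 CPM in Control and in no other library had a median of 108 CPM in Control, beside 171 CPM for the whole program. NDRG1, the highest of them, was at 174.7 CPM against 70.0, 40.6 and 92.2 CPM. ABHD4 followed at 159.8 CPM and the cell cycle ubiquitin ligase component SKP2 at 157 CPM. The ATF7IP libraries, which carry different hairpins, differed from each other by a median of 16.2% of their mean over the 2522 genes. That figure is not a replicate error and gives no scale for single genes, and no difference was tested.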

How the data were processed

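The deposited table holds the authors' expected counts, which were whole numbers, by gene symbol in 4 polyA RNA libraries. The build hg38 and the tools StringTie 2.2.1, HISAT2 2.2.1 and DESeq2 1.34.0 are named in the submitters' processing notes, without roles; the annotation and counting are not given in the sources used here. Low values pile up at 4 and 8 (489 Control genes at 4, 288 at 3, 265 at 5), so about 4 counts per fragment were assumed, which no source states. The floor was 3 fragments, or 12 counts (0.171 CPM), and exact 95% Poisson intervals (scipy 1.17.1, Python 3.11.15) were taken on fragments.

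CPM used the column total. TPM used the median length of basic transcripts in GENCODE 29, found for 26552 genes. Gene types, positions and promoters came from RefSeq, matched for 26998 genes by symbol and 635 by synonym. One library allows no test, and none was run; edgeR 4.0.16 (R 4.3.3) gave only an alternative total. Interval and threshold code was tested on simulated counts drawn under the same assumed counts per fragment, so that assumption itself was not tested.

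Named genes were the 5 markers, the 20 highest, the 15 highest transcription factors, secreted and surface genes, the 4 highest of each lineage list (every secreted hepatocyte gene and liver transcription factor), the 3 highest of each class and 3 on either side of the threshold, with ATF7IP, SETDB1, CYB5R2 and PARK7; others were chosen after their values were seen. Some genes that this rule names are not reported here. Members and lists were chosen with earlier results of these data known. Alternatives changed the total, threshold, scale, floor and transcript length.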

Additional observations from a re-analysis of the deposited data

How the results depend on the processing

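No paired analysis was possible because Control has 1 library and no test was run. The number of genes at or above 100 CPM was 2525 on the total without structural RNA, 2547 on the TMM-scaled total and 2580 on the protein-coding total, and 2030 genes reached 100 TPM. It was 5005 at 50 CPM and 1000 at 200 CPM. The share of the 100 highest genes was 15.1% in CPM, 15.2% without structural RNA, 22.4% in TPM and 22.4% in TPM on the longest principal transcript. Transcription factors numbered 149 at 50 CPM, 16 at 200 CPM, 34 at 100 TPM and 35 with principal transcripts. Secreted genes numbered 40 at 200 CPM. Surface genes numbered 145 at 50 CPM, 48 at 200 CPM and 57 at 100 TPM on principal transcripts. Secreted hepatocyte genes numbered 11 above 0 and 2 at or above 1 CPM. For presence in the other libraries, the share in all 3 was 84.9% at 50 CPM and 79.0% at 200 CPM. Promoters with TATAAA made up 1.64%, 3.23%, 6.38% and 13.3% of genes at or above 50, 200, 500 and 1000 CPM. The promoter thresholds, those for presence and the principal transcripts were chosen after seeing the data. Of 190 named genes, 108 kept a rank within 1.5 times per kilobase, and all 190 kept their CPM within its interval without structural RNA. Of 108 named genes at or above 100 CPM, 100 also reached 100 TPM. With 1 library the spread between cultures is unknown, and depth limits statements to levels above 0.171 CPM.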

Other observations

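The program of the library labelled Control was not spread evenly over the chromosomes. Of 99 protein-coding genes above the floor in the first 50 Mb of chromosome 5, 48 (48.5%) were at or above 100 CPM, beside 18.6% of all 13375 protein-coding genes above the floor. The same stretch gave 45.5%, 45.5% and 49.5% in ATF7IP hairpins 1 and 2 and the SETDB1 hairpin. Among the 67 stretches of 50 Mb with at least 50 such genes the median was 17.8%, and the next highest was the first 50 Mb of chromosome 18 at 28.9%. Genes there included CCT5 (1253 CPM), a subunit of the cytosolic chaperonin, the ribosomal protein gene RPL37 (1133 CPM), TARS1 (768 CPM), which charges threonine tRNA, BASP1 (406 CPM), DAP (377 CPM) and OXCT1 (354 CPM), an enzyme of ketone use.

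Of 23 genes within 1 Mb of YAP1 on chromosome 11, 5 were at or above 100 CPM, 18 were at or below 10.5 CPM and 10 of those were at 0, the adjacent CFAP300 included. TMEM123 was at 575 CPM, the inhibitors of apoptosis BIRC3 and BIRC2 at 234 and 145 CPM, DCUN1D5 at 106 CPM and CEP126 at 101 CPM. The matrix metalloproteinase genes of the same stretch were low, with MMP7, MMP1 and MMP3 at 0.0570 CPM, MMP13 at 0.228 CPM and MMP8, MMP10, MMP12 and MMP20 at 0, and PGR was at 0. WWTR1 (TAZ), the paralog of YAP1, was at 102 CPM.

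Of 1162 long noncoding RNAs above the floor, 14 (1.20%) were in the program, beside 16.3% of all genes above the floor. The 14 were led by snoRNA host genes and nuclear RNAs: SNHG29 (1374 CPM), GAS5 (1123 CPM), NEAT1 (878 CPM) and SNHG32 (768 CPM). H19, an imprinted RNA of fetal tissues, was at 617 CPM, rank 167. MALAT1 was at 353 CPM and NORAD at 347 CPM. Counts of RNAs that overlap other genes depend on how strand was handled, which is not given in the sources used here. PARK7, a redox-sensing protein, was at 243 CPM (rank 752), and CYB5R2 had 5 counts, below the floor.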
